A study of Mus musculus with 3 samples.

Results

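Il18r1, Il18rap, Il1r1, Il1rl1 and Il1rap encode chains of the receptors for interleukin 18, interleukin 1 and interleukin 33. They were taken by symbol and make up 5 of the 27998 genes in the count tables, and all 5 had UMIs (unique transcript counts) in each of the 3 libraries. A receptor of this family binds its cytokine through 1 chain and signals only once a second, accessory chain has joined. IL-18Rα, from Il18r1, pairs with the accessory chain IL-18Rβ, from Il18rap. IL-1R1, from Il1r1, and ST2, the IL-33 receptor from Il1rl1, share the accessory chain IL-1RAcP, from Il1rap. Assembled receptors recruit MyD88 and IRAK kinases and act through NF-κB and MAP kinases. In innate lymphoid cells (ILCs) the family is best known from group 2 cells, which respond to IL-33 through ST2, and from the response of ILC precursors and natural killer (NK) cells to IL-18.

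The series profiled single cells sorted from bone marrow of C57BL/6 mice with 10x Chromium v2 libraries, which count the 3′ ends of transcripts, to follow the loss of the transcription factor TCF-1, encoded by Tcf7. ALP, the all-lymphoid progenitors, were Flt3high IL-7Ra+ a4b7- cells within the Lin- Kit+ 2B4+ fraction of Tcf7EGFP/+ mice. ILCpro_WT, the early ILC progenitors, were sorted as Lin- Kit+ 2B4+ a4b7+ Tcf7+ from Tcf7EGFP/+ mice as well, so "WT" here carries the reporter on 1 allele. ILCpro_KO came from the same gate in Tcf7EGFPnull/- mice. Each group is 1 library, and the labels give neither the animals' ages nor how many were pooled. No difference below therefore has a replicate check or a test, and every interval in parentheses is an exact 95% interval that covers counting error only.

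After filtering, 810 ALP, 1829 ILCpro_WT and 716 ILCpro_KO cells were kept, 3355 in all, with 4115605, 6094683 and 4384061 UMIs and medians of 4544.5, 2897 and 5309 UMIs per cell. A level in CPM is a gene's UMIs scaled by the total of its library. Tcf7 measured 362 CPM in ILCpro_WT, 57.3 in ILCpro_KO and 1.46 in ALP, and since the labels do not give the deleted part of the gene, 3′ tags do not check the genotype. ILCpro_WT and ALP shared 4 barcodes, ILCpro_WT and ILCpro_KO shared 1, and ALP and ILCpro_KO shared 0. The gated populations held other cells too. The summed level of 11 neutrophil and monocyte markers was 979 CPM in ALP, 494 CPM in ILCpro_WT, where Ngp and Camp were at 0, and 4745 CPM in ILCpro_KO.

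In the mouse genome (GRCm38, GENCODE vM21) 4 of the 5 genes lie on the plus strand of chromosome 1 within 326626 bases, with Il1rl2, another receptor of the family, between Il1r1 and Il1rl1. Il1r1 (ENSMUSG00000026072) spans chr1:40225080-40317257, Il1rl1 (ENSMUSG00000026069) chr1:40429570-40465415, Il18r1 (ENSMUSG00000026070) chr1:40465552-40500854 and Il18rap (ENSMUSG00000026068) chr1:40515362-40551705. Il1rap (ENSMUSG00000022514) lies elsewhere, at chr16:26581704-26730117, also on the plus strand. Il1rl1 ends 136 bases before Il18r1 starts, whereas 14507 bases separate Il18r1 from Il18rap.

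The sequences upstream of the start sites of Il18r1, Il18rap and Il1r1 are shown because these are the 3 chains with most UMIs and, although close together on 1 strand, they had 3 different orders of level among the libraries. All 5 genes matched the RefSeq promoter table (GRCm38.p6). Il18r1 had 3 start-site windows there and Il1r1 had 2, and for each the window with the lowest position was used. The plus strand is printed 5′ to 3′ up to the base before the start, and for Il18r1 this is the whole gap behind Il1rl1. Capitals mark matches, on either strand, to any of 4 words. The first is CTTTGA, which TCF and LEF factors, TCF-1 among them, are known to bind. The others are AGATAA, known for factors of the GATA family, then TGTGGT, known for RUNX factors, and last GGAAGT, known for ETS factors.
Il18r1, chr1:40465416-40465551: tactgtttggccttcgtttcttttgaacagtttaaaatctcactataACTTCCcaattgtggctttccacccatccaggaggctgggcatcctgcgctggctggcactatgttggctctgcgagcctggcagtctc
Il18rap, chr1:40515112-40515361: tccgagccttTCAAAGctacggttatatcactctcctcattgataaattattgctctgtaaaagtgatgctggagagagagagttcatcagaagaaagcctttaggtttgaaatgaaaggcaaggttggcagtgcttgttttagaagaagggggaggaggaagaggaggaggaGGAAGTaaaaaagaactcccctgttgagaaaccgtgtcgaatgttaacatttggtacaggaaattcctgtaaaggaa
Il1r1, chr1:40224830-40225079: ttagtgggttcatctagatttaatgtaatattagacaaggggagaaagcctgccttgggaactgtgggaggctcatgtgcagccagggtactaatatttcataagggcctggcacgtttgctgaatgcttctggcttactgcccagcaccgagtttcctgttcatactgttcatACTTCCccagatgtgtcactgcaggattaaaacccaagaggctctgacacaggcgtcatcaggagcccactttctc

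Each of the 3 stretches holds 1 ETS word, which begins 89 bases before the start of Il18r1, 77 before Il18rap and 76 before Il1r1. This word is common: 12.7% of all 32851 promoters hold it in the last 136 bases before the start and 19.7% in the last 250. The Il18rap stretch alone also holds a TCF/LEF word, 240 bases before the start, which 13.8% of all promoters hold within 250 bases. None of the 3 stretches holds the GATA word (5.09% of promoters over 136 bases, 9.99% over 250) or the RUNX word (7.62% and 14.0%). Outside them, the RUNX word lies at base 272 of window 2 of Il18r1 and base 282 of the Il18rap window, each of 300 bases. These matches describe letters in a window and no binding was measured.

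Il18r1, the ligand-binding chain for IL-18, had the most UMIs of the family in both ILC progenitor libraries and was far higher there than in ALP. Il18rap, its accessory chain, had the opposite order. ALP had 103 Il18r1 UMIs, or 25.03 CPM (20.4 to 30.4), ILCpro_WT had 1291, or 212 CPM (200 to 224), and ILCpro_KO had 475, or 108 CPM (98.8 to 119). All 3 intervals are apart. It was 8.46-fold higher (6.92 to 10.4) in ILCpro_WT than in ALP, 1.96-fold lower (1.76 to 2.18) in ILCpro_KO than in ILCpro_WT, and still 4.33-fold higher (3.49 to 5.41) in ILCpro_KO than in ALP.

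ALP had 161 Il18rap UMIs, or 39.1 CPM (33.3 to 45.7), ILCpro_WT had 58, or 9.52 CPM (7.23 to 12.3), and ILCpro_KO had 46, or 10.5 CPM (7.68 to 14.0). ALP was high and both ILC progenitor libraries were low, with intervals that overlap each other. Il18rap was 4.11-fold lower (3.03 to 5.65) in ILCpro_WT than in ALP, and the ratio of ILCpro_KO to ILCpro_WT was 1.10 (0.732 to 1.65). The number of Il18r1 UMIs per Il18rap UMI was 0.640 in ALP, 22.3 in ILCpro_WT and 10.3 in ILCpro_KO. These 3′ counts are not corrected for how well each gene is captured, so that number compares libraries and not the amounts of the 2 chains.

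Il1r1, the signalling receptor for IL-1, was highest in ILCpro_KO. ALP had 64 Il1r1 UMIs, or 15.6 CPM (11.98 to 19.9), ILCpro_WT had 44, or 7.22 CPM (5.25 to 9.69), and ILCpro_KO had 130, or 29.7 CPM (24.8 to 35.2). Its 3 intervals do not overlap, and the order differs from those of both IL-18 receptor chains. Il1r1 was 2.15-fold lower (1.44 to 3.24) in ILCpro_WT than in ALP, and 4.11-fold higher (2.90 to 5.92) in ILCpro_KO than in ILCpro_WT.

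Il1rap, the shared accessory chain, had the same order of libraries at much lower counts. ALP had 15 UMIs, or 3.64 CPM (2.04 to 6.01), ILCpro_WT had 11, or 1.80 CPM (0.901 to 3.23), and ILCpro_KO had 27, or 6.16 CPM (4.06 to 8.96). Only the 2 ILC progenitor libraries have intervals apart, with ILCpro_KO 3.41-fold higher (1.64 to 7.62). Il1rl1 had the fewest UMIs in all, with 4 in ALP (0.972 CPM), 18 in ILCpro_WT (2.95 CPM) and 12 in ILCpro_KO (2.74 CPM), and all 3 intervals overlap. Il1rl1 and Il1rap have 5 and 4 protein-coding transcript ends in the annotation, and the sum over them does not separate the soluble from the membrane forms known for both.

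**Figure D1:**
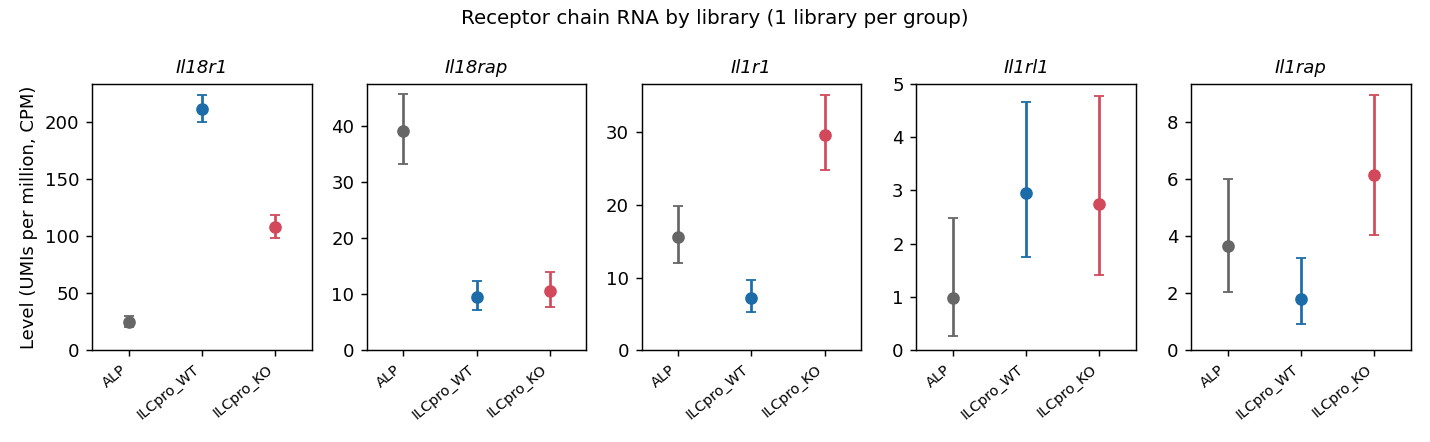
Level of each receptor chain (CPM, linear axes that start at 0) in the ALP, ILCpro_WT and ILCpro_KO libraries; points are library sums and bars exact 95% Poisson intervals of counting error. Il18r1 peaks in ILCpro_WT at 212 CPM, Il18rap in ALP at 39.1 CPM and Il1r1 in ILCpro_KO at 29.7 CPM.

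A call here means a difference of at least 2-fold on the log2 scale with 10 CPM added, among genes that reach 5 CPM in 1 of the 2 libraries compared. This is a rule of size, with no test behind it. In ILCpro_WT against ALP, 3 members were abundant enough, and 1 was called higher (Il18r1) and 1 lower (Il18rap), where 2.11% of 9616 genes were called higher and 3.06% lower. In ILCpro_KO against ILCpro_WT, 4 members entered, 1 was called higher (Il1r1) and 0 lower, against 1.48% and 0.869% of 9551 genes. In ILCpro_KO against ALP, 4 entered, and again Il18r1 was called higher and Il18rap lower, against 2.01% and 1.43% of 9644 genes. These comparisons share libraries. Median log2 ratios over the members that entered were -0.57, 0.26 and 0.44 in that order, beside -0.07, 0.09 and 0.01 over all genes, and the members behind them moved in different directions.

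The share of cells with a UMI depends on depth, so it was also taken with every cell thinned to 1000 UMIs, which left out 4 ILCpro_WT cells. The Il18r1 share was then 1.85% (1.04 to 3.04) for ALP, 19.2% (17.4 to 21.1) for ILCpro_WT and 8.66% (6.70 to 10.96) for ILCpro_KO. Without thinning the shares were 8.64%, 31.4% and 30.3%, where the 2 ILC progenitor libraries lie close together. The gap between them was narrower at 2000 UMIs, where the shares were 19.6% (17.6 to 21.7) and 15.6% (13.0 to 18.5). These shares cover other sets of cells: 1446 ILCpro_WT and 700 ILCpro_KO cells, against 1825 and 716 at 1000 UMIs. ILCpro_WT cells with Il18r1 were shallower than those without, at a median of 2394 against 3106 UMIs. The part of these lost cells in the narrower gap was not tested. Of 84 neutrophil-monocyte-like cells, which should lack Il18r1, 0 had a UMI with or without thinning, at a median of 8233 UMIs, which allows a share of up to 3.57%. The thinned ALP share lies below that limit, and the unthinned one lies above it.

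The thinned Il18rap share was 3.58% (2.41 to 5.10) for ALP, 1.10% (0.671 to 1.69) for ILCpro_WT and 1.12% (0.484 to 2.19) for ILCpro_KO. The unthinned shares were 16.8%, 3.01% and 5.45%. The neutrophil-monocyte-like cells had 4.76% unthinned, at their greater depth, and 0 of 84 cells after thinning, which allows up to 3.57%. Both thinned ILC progenitor shares lie below that limit. The thinned Il1r1 share was 1.85% (1.04 to 3.04) for ALP, 0.712% (0.380 to 1.22) for ILCpro_WT and 3.35% (2.16 to 4.95) for ILCpro_KO. Its unthinned shares were 7.28%, 2.35% and 15.1%. In the neutrophil-monocyte-like cells 3.57% had Il1r1 unthinned and 0 of 84 after thinning. B cell-like cells, the background planned for Il1r1, had 0 of 22 after thinning, which allows up to 13.6%. All 3 thinned library shares lie below both limits. These limits, like those above, follow from the number of background cells. A share below them is not thereby shown to be background. Il1rl1 was found without thinning in 0.494%, 0.875% and 1.40% of cells and Il1rap in 1.73%, 0.601% and 3.77%. The neutrophil-monocyte-like cells had Il1rap in 8.33% unthinned, at their median of 8233 UMIs.

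To place the chains by stage, all kept cells were clustered with the family, its pathway genes and the cell type markers left out, which gave 15 clusters. Clusters 0 and 4 were ALP-like (4 was dividing). Cluster 3 was EILP-like (early ILC progenitor) with Fgf3 and Tcf7 among its leading genes, and cluster 11 was ILCP-like (ILC precursor) with Icos and Cxcr6. The name of cluster 3 was a narrow call, with 5 EILP markers raised beside 4 ILCP markers. That of cluster 11 was narrow too, with 5 ILCP markers raised beside 4 markers of group 2 ILCs (ILC2). At resolution 1.5 its counterpart stayed unnamed, with ILCP and ILC2 tied. Cluster 1, led by Cacna1e, Lmo4, Rora and Tox2, had all 8 ILCP markers raised at least 2-fold over other cells but stayed unnamed because markers of EILP were among its leading genes. Clusters 2 (led by Nfil3), 5 (dividing) and 6 (led by Bhlhe41 and Cd7) were unnamed too and held cells of both genotypes. Cluster 6 had 4 conventional dendritic cell markers raised (H2-Aa, H2-Ab1, H2-Eb1 and Batf3), but a marker of another type was among its leading genes. Clusters 1, 3, 7 and 11 were almost wholly ILCpro_WT, with 515, 352, 242 and 63 of its cells against 17, 21, 5 and 0 of ILCpro_KO. With 1 library per genotype, such a cluster cannot be told apart from its library.

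Il18r1 was concentrated in clusters 1 and 11, which had ILC precursor markers raised. In cluster 11 nearly as many ILC2 markers were raised. Among the 16 combinations of cluster and library with at least 50 cells, ILCpro_WT cluster 1 stood at 647 CPM (605 to 692) and cluster 11 at 624 CPM (517 to 747). These 2 do not differ beyond their intervals and lie above every other combination. A middle group followed, with ILCpro_KO cluster 5 at 163 CPM, ILCpro_WT cluster 6 at 160 CPM, ILCpro_KO cluster 2 at 147 CPM, ILCpro_WT cluster 7 at 141 CPM and ILCpro_KO cluster 6 at 139 CPM, whose intervals overlap. The EILP-like cluster 3 stood at only 41.1 CPM, beside 28.1 and 23.2 CPM in ALP clusters 4 and 0. ILCpro_KO cluster 10, the neutrophil-monocyte-like cells, had no Il18r1 UMI.

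Il18rap was highest in ALP cluster 0, at 46.0 CPM (37.4 to 56.0), followed by ALP cluster 4, at 33.0 CPM (25.2 to 42.5), with overlapping intervals. Every ILC progenitor combination stood at or below 16.3 CPM, the level in ILCpro_KO cluster 5, and the Il18r1-rich ILCpro_WT cluster 1 at 15.9 CPM (9.82 to 24.2). In cluster 1 there were 40.8 Il18r1 UMIs per Il18rap UMI. Il1r1 was highest in 3 ILCpro_KO clusters, with 45.2 CPM (31.6 to 62.5) in cluster 5, 43.2 CPM (29.9 to 60.4) in cluster 6 and 42.8 CPM (31.0 to 57.7) in cluster 2. These 3 clusters held 58.8% of ILCpro_KO cells and 86.9% (79.9 to 92.2) of its Il1r1 UMIs. In the ILCP-like cluster 11 no Il1r1 UMI was found, which leaves up to 19.5 CPM.

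**Figure D2:**
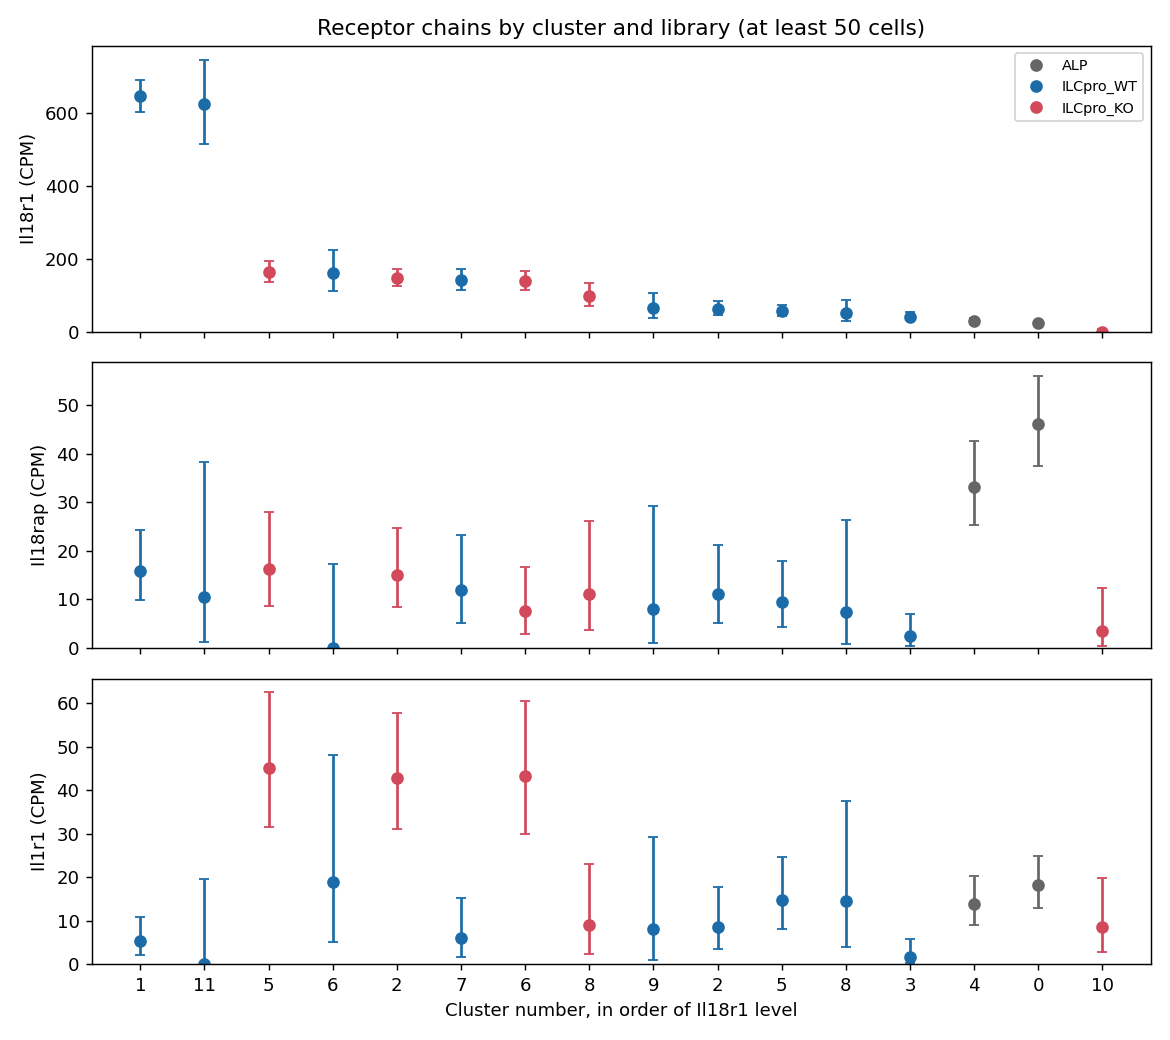
Level of Il18r1, Il18rap and Il1r1 (CPM, linear axes) in the 16 combinations of cluster and library with at least 50 cells, ordered by Il18r1; points are sums over cells and bars exact 95% Poisson intervals. Il18r1 stands out in ILCpro_WT clusters 1 and 11 (647 and 624 CPM), Il18rap in the 2 ALP clusters and Il1r1 in ILCpro_KO clusters 5, 6 and 2.

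Most Il18r1 UMIs of ILCpro_WT lay in clusters 1 and 11. These held 31.6% of ILCpro_WT cells and 75.5% (73.1 to 77.8) of its Il18r1 UMIs, against 2.37% of ILCpro_KO cells and 2.95% of its UMIs. In all other cells the ILCpro_WT level was 69.0 CPM (61.6 to 77.0) and the ILCpro_KO level was 107 CPM (97.5 to 117), so there the direction turned. In clusters 1 and 11 the 17 ILCpro_KO cells had 14 Il18r1 UMIs, at 181 CPM (98.9 to 304), against 644 CPM (605 to 686) in ILCpro_WT. How far fewer cells of these clusters, or less Il18r1 RNA per cell, made up the whole-library difference was not tested.

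Within the clusters that both genotypes shared, neither direction was uniform. In cluster 2 Il18r1 was at 147 CPM in ILCpro_KO and 63.1 CPM in ILCpro_WT, a ratio of 2.34 (1.69 to 3.28). In cluster 5 the levels were 163 and 56.6 CPM, a ratio of 2.88 (2.08 to 4.04). In cluster 6 they were 139 and 160 CPM, a ratio of 0.867 (0.585 to 1.31), and in the conventional dendritic cell (DC)-like cluster 8 they were 98.6 and 51.2 CPM, a ratio of 1.93 (1.04 to 3.804). The excess in cluster 2 depended on how finely cells were clustered: at resolution 1.5 its counterpart gave 1.30 (0.727 to 2.32).

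Il1r1 was higher in ILCpro_KO in clusters 2 and 5 by ratios of 4.95 (2.21 to 13.0) and 3.08 (1.62 to 6.18). The intervals in cluster 6, at 2.30 (0.819 to 8.91), and cluster 8, at 0.613 (0.114 to 3.29), include equal levels. The excess of Il1r1 over the whole library was therefore also found within shared clusters, while the deficit of Il18r1 was not found in clusters 2, 5 or 8. ILCpro_KO cells were deeper in these clusters, with medians of 5326 against 3299 UMIs in cluster 2 and 10182 against 5819 in cluster 5, and the part of depth was not tested.

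**Figure D3:**
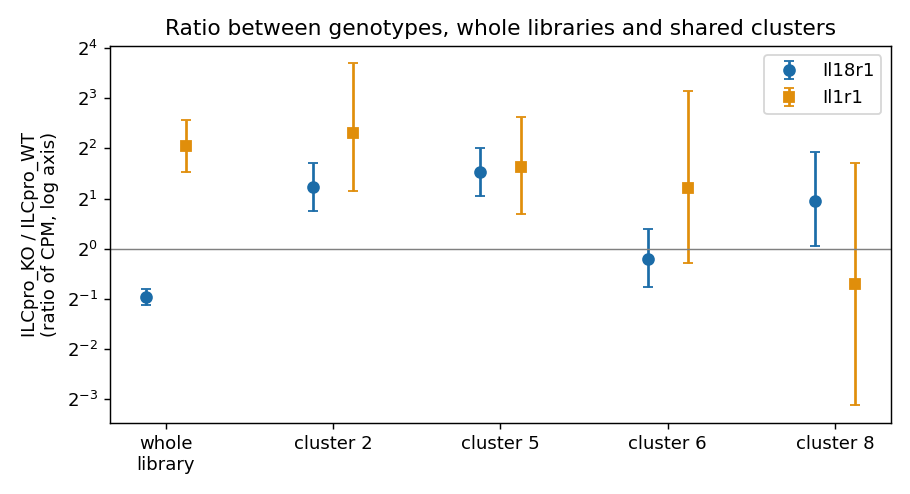
Ratio of ILCpro_KO to ILCpro_WT level (CPM over CPM, log axis) for Il18r1 and Il1r1 in the whole libraries and in the 4 clusters with at least 50 cells of each genotype; bars are exact 95% conditional binomial intervals and the line marks equal levels. Il18r1 lies below the line over whole libraries and above it in clusters 2, 5 and 8, and Il1r1 lies above it over whole libraries and in clusters 2 and 5.

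Il1rl1, the ligand-binding chain for IL-33, was found at few UMIs in both genotypes. In ILCpro_WT 9 of 18 UMIs lay in cluster 11, at 47.6 CPM (21.8 to 90.4), in 7 of its 63 cells. This cluster also had Arg1, a gene of group 2 ILCs and their precursors, among its leading genes. ILCpro_KO had no cell in cluster 11. There 9 of 12 UMIs lay in the 29 cells of cluster 12, at 50.4 CPM (23.1 to 95.8). The 14 ILCpro_WT cells of cluster 12 had 2 UMIs, at 28.2 CPM (3.42 to 102), an interval that overlaps. Cluster 12 was named erythroid-megakaryocyte-like, with 10 markers of that type raised beside 7 of mast cells and basophils. It was led by Prss34 and Mcpt8, basophil proteases, together with globin genes. Mast cells and basophils are known to carry ST2. Of the 10 ILCpro_KO cells with Il1rl1, 7 had at least 3 UMIs of mast cell and basophil markers, against 10.5% of its other cells. Of the 16 ILCpro_WT cells with Il1rl1, 2 had at least 3 such UMIs and 2 had at least 3 UMIs of ILC2 markers, a share of 12.5% (1.55 to 38.3) each. The 9 mast cell and basophil markers summed to 32.1 CPM in ALP, 318 CPM in ILCpro_WT and 807 CPM in ILCpro_KO. Of these, Tpsb2 and Cma1 were at 0 throughout.

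Cells were also split by Zbtb16, whose product PLZF marks committed ILC precursors. Here Zbtb16 was also a leading gene of the EILP-like cluster 3, and it was not among the ILCP markers raised in cluster 11. In ILCpro_WT Il18r1 stood at 229 CPM (212 to 247) in the 839 cells with a Zbtb16 UMI and 195 CPM (180 to 211) in the 990 without, a ratio of 1.17 (1.05 to 1.31). In ILCpro_KO the levels were 131 and 103 CPM, a ratio of 1.28 (1.02 to 1.58). Il1r1 had ratios of 0.612 (0.310 to 1.17) in ILCpro_WT and 1.01 (0.631 to 1.56) in ILCpro_KO, both of which include equal levels.

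Chains of the IL-18 receptor were seen in the same cell more often in ALP than their separate frequencies give. In ALP 27 cells had both Il18r1 and Il18rap, against 11.8 from the product of the shares and 12.9 when that product was taken within 5 bins of depth. Il18rap was found in 38.6% (27.2 to 51.0) of ALP cells with Il18r1 and 14.7% (12.3 to 17.5) of those without. The excess was present in both ALP clusters, with 12 cells against 6.09 in cluster 0 and 14 against 5.97 in cluster 4. By depth the expected numbers were 5.88 and 7.34. In cluster 0 Il18rap was found in 32.4% (18.0 to 49.8) of cells with Il18r1 and 15.2% (12.2 to 18.7) without, intervals that overlap. In cluster 4 these shares were 45.2% (27.3 to 64.0) and 15.5% (10.9 to 21.1), with intervals apart. Over all ALP cells, those with Il18r1 were deeper, at a median of 5555.5 against 4478.5 UMIs, and the part of depth beyond these bins was not tested. Without the 5 highest doublet scores, 27 ALP cells still had both.

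In ILCpro_WT 25 cells had both chains, against 17.3 from the product and 15.02 by depth. Il18rap was found in 4.35% (2.83 to 6.35) of cells with Il18r1 and 2.39% (1.62 to 3.398) of those without, intervals that overlap. In cluster 1, where most Il18r1 lay, 11 cells had both against 13.2 from the product, and no excess was seen. In cluster 7, NK cell-like by 4 markers (Ncr1, Klrd1, Klre1 and Eomes), 5 cells had both against 1.39, and in cluster 5 there were 4 against 1.58. Clusters 2 and 11 had 2 each, against 1.55 and 1.43. The NK cell-like name of cluster 7 depended on resolution. Cluster 7 held 242 ILCpro_WT cells, whereas at resolution 1.5 only 71 were in an NK cell-like cluster. At resolution 0.5 no cluster had that name. In ILCpro_KO 19 cells had both against 11.8, with Il18rap in 8.76% (5.35 to 13.3) of cells with Il18r1 and 4.01% (2.47 to 6.12) of those without. By cluster, ILCpro_KO had 4 against 5.12 in cluster 2, 7 against 6.58 in cluster 5 and 2 against 1.42 in cluster 6. Its DC-like cluster 8 had 3 against 0.976. At 1000 UMIs per cell only 1, 3 and 1 cells in ALP, ILCpro_WT and ILCpro_KO had both chains, too few to read pairing.

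The chains of the other 2 receptors were seldom caught together. Il1r1 and Il1rap were both found in 2 ALP, 0 ILCpro_WT and 5 ILCpro_KO cells, against 1.02, 0.259 and 4.07 from the product. No cell had both Il1rl1 and Il1rap. At these counts a missing partner does not show that the cell lacks it. Over all 5 chains, 71.6% of ALP, 64.8% of ILCpro_WT and 56.1% of ILCpro_KO cells had none, and 5.19%, 2.84% and 9.36% had exactly 2.

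**Figure D4:**
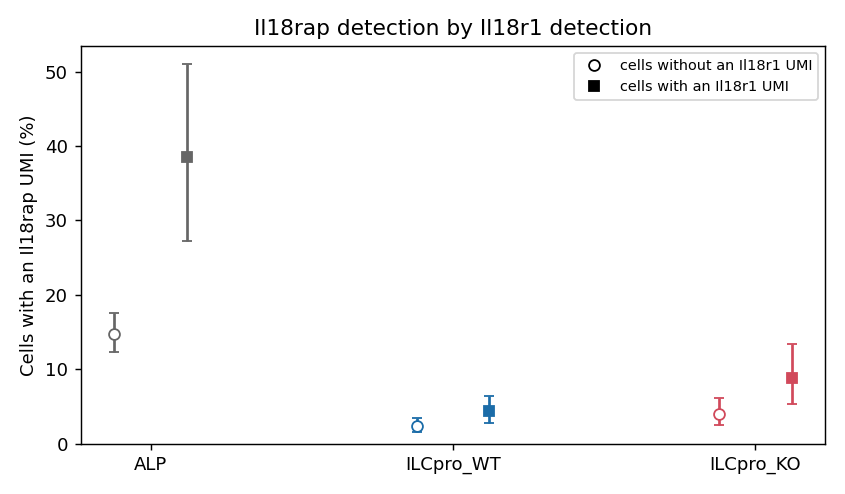
Share of cells with an Il18rap UMI (percent) among cells without (open circles) and with (filled squares) an Il18r1 UMI in each library, unthinned; bars are exact 95% Clopper-Pearson intervals. The shares lie apart in ALP (14.7% and 38.6%), and the intervals overlap in both ILC progenitor libraries.

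The 10 genes with the largest excess in ILCpro_WT cells with an Il18r1 UMI were led by Ltb. Ltb, a lymphotoxin chain made by ILC precursors, stood at 440 CPM in the 575 cells with Il18r1 and 62.9 CPM in the 1254 without. Icos, a costimulatory receptor, stood at 96.5 against 9.76 CPM, and Maf, a transcription factor, at 233 against 32.7 CPM. Arg1 stood at 95.9 against 12.7 CPM and Ccr2, a chemokine receptor, at 174 against 32.7 CPM. The others among the 10 were Cacna1e, Ikzf3, Lmo4, Itgb3 and Fam129a. Cells with Il18r1 were shallower, at a median of 2394 against 3106 UMIs.

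In ILCpro_KO the largest difference was that of Bpifc, at 54.6 CPM in the 217 cells with Il18r1 and 15.5 CPM in the 499 without. The cell cycle gene Ccnb1 came next (111 against 46.4 CPM), then Ltb (76.6 against 30.3 CPM) and Ube2c, another cell cycle gene. In ALP the leading gene was Nfil3, a transcription factor needed at the start of the ILC lineage, at 53.2 CPM in the 70 cells with Il18r1 and 11.9 CPM in the 740 without. Mitotic genes such as Cenpa and Ccnb1 followed it there. Cells with Il18r1 were deeper than those without in both libraries, and the part of depth was not tested. The lists for ILCpro_KO and ALP were added after the ILCpro_WT values had been seen.

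Across the 16 combinations of cluster and library, the gene with the pattern most like Il18r1 was Faah, a fatty acid amide hydrolase (Pearson r of log2 levels 0.90 among 4297 genes), followed by Aak1, Sept11, Kdm2a and Stim1. For Il18rap they were Il16, a cytokine (0.86), Egfl7, Il10rb, Hibadh and Tapt1. For Il1r1 they were Txn2 (0.84), Rgs18, Atxn10, Ctnnb1 and Ctr9. For Il1rl1 they were Pxdc1 (0.98), Axin2, Stab2, Hlf and Ccr9, a ranking that rests on cluster 11 with its 9 UMIs, and for Il1rap Nans (0.84), Psma5, Gart, Ostc and Tmed2. The points share libraries and differ in depth, so these values only describe.

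Ligands of the family were almost absent from the sorted cells. All 9 ligand genes were in the gene list and none reached 5 CPM. Il18 had 14 UMIs in ALP, 9 in ILCpro_WT and 1 in ILCpro_KO. Among decoys and inhibitory receptors, Il1r2, which binds IL-1 without signalling, stood at 1.21 CPM in ALP, 6.23 CPM in ILCpro_WT and 10.3 CPM in ILCpro_KO. Sigirr, an inhibitory member of the family, stood at 30.9, 26.4 and 22.6 CPM in that order. Neither gene was called in any comparison. Il1r2 was most abundant in ILCpro_WT cluster 6 among the 4 shared clusters, at 47.0 CPM (22.5 to 86.5, 10 UMIs).

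Signalling genes downstream of the receptors were mostly detected, though Peli3 had no UMI in ILCpro_WT. Of 28 fixed genes, 24, 24 and 23 were abundant enough in ILCpro_WT against ALP, ILCpro_KO against ILCpro_WT and ILCpro_KO against ALP. Of these 1, 0 and 1 were called higher and 0 lower in each. Over all genes 2.11%, 1.48% and 2.01% were called higher and 3.06%, 0.869% and 1.43% lower. The signalling gene called was Nfkb1, which encodes the p105 precursor of NF-κB p50. Its level was lowest in ALP, at 85.5 CPM (76.8 to 94.9), higher in ILCpro_WT, at 264 CPM (251 to 277), and highest in ILCpro_KO, at 394 CPM (376 to 413). Nfkb1 was 3.08-fold higher (2.75 to 3.47) in ILCpro_WT than in ALP and 4.61-fold higher (4.11 to 5.18) in ILCpro_KO. Between genotypes within cluster 2 the ratio was 1.04 (0.878 to 1.22) and in cluster 5 it was 1.84 (1.54 to 2.19). In clusters 6 and 8 it was 1.01 (0.845 to 1.22) and 1.16 (0.960 to 1.41). Of these intervals only that of cluster 5 excludes equal levels.

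Myd88, the shared adaptor, stood at 12.1 CPM in ALP, 9.84 CPM in ILCpro_WT and 19.8 CPM in ILCpro_KO, and Irak1, its kinase, at 58.8, 68.1 and 64.1 CPM. None of the feedback and response genes was called, of 5, 5 and 6 abundant enough among 14. Nfkbia, the NF-κB inhibitor that is itself a target, stood at 95.2 CPM in ALP, 91.2 CPM in ILCpro_WT and 116 CPM in ILCpro_KO. None of the 3 processing genes abundant enough was called. At the low shares called over all genes, the lack of a call in lists this small says little. Pycard, an inflammasome adaptor, stood at 194 CPM in ALP, 224 in ILCpro_WT and 330 in ILCpro_KO.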

How the data were processed

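Single-cell counts were analysed for 3 libraries, 1 per group. The authors deposited whole-number counts of UMIs for each barcode and gene. Cell Ranger 2.0.1, STAR 2.5.1b, bcl2fastq 2.17 and mm10 are listed in the submitters' processing notes. The role of each tool and how cells were called are not given in the sources used here. Cells with at least 500 genes and at most 10% mitochondrial UMIs were kept. UMIs were summed per library or cluster and scaled to its total. Intervals are exact at 95% (Poisson, conditional binomial, Clopper-Pearson). Where 0 cells had a UMI, the limit is 3 counts over the cells. Cells were clustered together without batch integration in scanpy 1.11.5 and leidenalg 0.10.2 (2000 variable genes, 30 components, 15 neighbours, resolution 1). A cluster was named from at least 3 markers, and left unnamed where its 10 leading genes went against the name. Doublets were kept, and an alternative removed the highest Scrublet scores at 0.8% per 1000 barcodes. Other alternatives were TMM scaling (edgeR 4.0.16, R 4.3.3), totals without ribosomal and mitochondrial genes, per-cell means, other cell filters, depths, resolutions and pseudocounts. The size rule and the ratio intervals were tested on simulated data. Named are all members, genes of the lists past 2-fold or with at least 50 CPM (at most 6 per list and comparison), the 5 genes most like each member, and the 10 leading genes of ILCpro_WT cells with Il18r1; other genes were chosen after their values were seen. Members and lists were chosen with earlier results of these data known.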

Additional observations from a re-analysis of the deposited data

How the results depend on the processing

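Of 176 alternative values, 147 stayed within their interval or within 1.5 times, 27 moved and 2 turned the direction of a ratio whose interval excludes 0; the cause was not tested. These 2 were Il18r1 in ILCpro_KO against ILCpro_WT (log2 ratio -0.97): it became 0.63 without clusters 1 and 11, and 0.74 without clusters 1, 3, 7 and 11. It was -1.16 as a mean of per-cell CPM, -0.38 with at least 1000 genes per cell, -0.74 without cells of other lineages, -0.68 when cluster 7 was not left out with them and -1.43 after thinning. Il18r1 in ILCpro_WT against ALP (3.08) was 3.66 by per-cell means, 2.43 with at least 1000 genes and 3.90 thinned, and in ILCpro_KO against ALP (2.11) it was 2.504 and 2.47 by per-cell means and thinned. In ILCpro_KO against ILCpro_WT, Il1r1 (2.04) was 1.41 without clusters 1, 3, 7 and 11, and Il1rl1 (-0.11) was -1.81 without other lineages, -1.64 with cluster 7 kept and 1.09 without clusters 1 and 11. This Il1rl1 ratio, whose interval includes 0, also changed sign to 0.38 with at least 1000 genes and 0.80 without clusters 1, 3, 7 and 11, and that of Il18rap (0.14) became -0.00318 with TMM scaling. The settings that leave out named clusters or keep cluster 7 were chosen after seeing the data. With 1 CPM added in place of 10, genes called higher and lower were 490 and 759 (203 and 294) in ILCpro_WT against ALP, 498 and 248 (141 and 83) in ILCpro_KO against ILCpro_WT, and 501 and 397 (194 and 138) in ILCpro_KO against ALP. At 2000 UMIs the ratio of Il18r1 shares was 4.26 for ILCpro_WT over ALP (10.4 at 1000) and 0.796 for ILCpro_KO over ILCpro_WT (0.452). Fewer cells were deep enough for 2000 UMIs, with 1446 of ILCpro_WT against 1825 at 1000. After thinning, Il18rap was found in 6.67%, 0.857% and 1.61% of the ALP, ILCpro_WT and ILCpro_KO cells with Il18r1. At resolution 0.5 the counterpart of clusters 1 and 11 held 81.3% of ILCpro_WT Il18r1 UMIs in 925 cells (75.5% in 578), and at 1.5 the Il18r1 ratio in cluster 2 was 1.30. No paired analysis was possible because each group is 1 library. Depth limits Il1rl1 and Il1rap most: 3 UMIs, the floor, equal 0.729, 0.492 and 0.684 CPM in ALP, ILCpro_WT and ILCpro_KO.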
